A study of Mus musculus with 9 samples.

Results

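The transcription factor genes Gata3, Pparg, Bhlhe41, Bhlhe40 and Epas1 were followed across naive CD4 T cells and Th2 cells of acute and chronic allergic airway inflammation in mice. Each gene was represented by the probe set that names it and no other gene, which gave 5 probe sets for 5 genes, of 34760 probe sets and 19937 tested genes on the array. The study used 9 arrays of the type Affymetrix Mouse Gene 1.0 ST, 3 in each of 3 groups, and a level below is the deposited log2 intensity. The design text of the series names as its aim the mechanisms by which chronic allergic inflammation persists.

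Chronic Th2 cells were sorted from lung at day 104 as CD4+ CD69+ ST2+ cells, after 12 weeks with 2 aerosols of 1% ovalbumin (OVA) a week. Acute Th2 cells were sorted from lung at day 29 by the same markers, after OVA aerosol on 3 days in a row. Mice of both Th2 groups had first been sensitised by 3 injections of 10 µg OVA with 1.5 mg aluminium hydroxide on days 1, 14 and 21. Naive cells were CD4+ CD44- cells of sham-treated mice, sorted from spleen at day 29 with a further marker of naive cells. After the sort, the cells of all 3 groups were activated for 8 h with antibodies to CD3 and CD28 per the labels. Irf4, Il2ra, Myc and Cd69, genes that such stimulation induces, were lower on naive array 1 than on naive arrays 2 and 3, as given beside Bhlhe40 below. Of these, Irf4, Il2ra and Myc were picked after their values were seen. Tissue and cell state cannot be told apart in either comparison with naive cells, nor can day and stage between chronic and acute Th2 cells. Day also differs between chronic Th2 and naive cells. The labels call the arrays of a group biological replicates without saying that they are separate animals, so a p-value measures only how these samples vary. Strain, age and sex of the mice were not used here.

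GATA3 is the zinc finger factor that commits CD4 T cells to the Th2 fate, binds the shared locus of the type 2 cytokines and is itself induced by IL-4 through STAT6. PPARG is a nuclear receptor for fatty acid ligands that binds DNA together with RXR and is known in Th2 cells for supporting their effector programme. BHLHE40 and BHLHE41 are related helix-loop-helix repressors that bind E-boxes and oppose CLOCK and ARNTL, and EPAS1 is an oxygen-regulated subunit of the hypoxia-inducible factors that pairs with ARNT and is broken down after hydroxylation by the EGLN enzymes. ST2, the receptor for IL-33 by which both Th2 groups were sorted, is itself known as a target of GATA3, so that the sort and this factor are not independent. Only RNA was measured.

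Background signal and 1 array bear on the members. Olfactory receptor genes, 1015 in number and not known to be used by T cells, gave a 95th percentile of 6.53, taken here as the mark for a level above background. The median of these genes was 5.67, 5.51 and 5.15 on chronic Th2 arrays 1, 2 and 3. It was between 4.98 and 5.21 on the acute Th2 arrays, and between 4.94 and 5.10 on the naive arrays. Results that naive array 1 or chronic Th2 array 3 decides are given without them as well.

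Of the sort markers, Cd44 had a level of 9.43 in chronic Th2 cells and 9.47 in acute Th2 cells, against 7.54 in naive cells. Cd4 had 9.77, 10.31 and 9.96, in the order chronic Th2, acute Th2 and naive. Cd69, by which both Th2 groups were sorted, had 10.53, 11.12 and 11.62 in the same order and did not pass in any comparison. Il1rl1, the gene of ST2, was not analysed here. The 8 measured T cell markers had a mean level between 10.2 and 10.4 on the chronic Th2 arrays, between 10.4 and 10.5 on the acute Th2 arrays and between 10.3 and 10.9 on the naive arrays. Of them, 2 fell and 0 rose in both Th2 groups over naive cells. Cd5 had differences of -1.15 in chronic and -0.72 in acute Th2 cells, and Lat of -1.02 and -0.97. The call of Cd5 in acute Th2 cells was lost when any 1 array other than naive array 1 was left out. Both calls of Lat were lost without naive array 3 or any 1 of the Th2 arrays. These 3 calls were also lost with the 2 groups of the comparison fitted alone. Alveolar macrophages carry PPARG, and 0 of 13 of their markers passed the test in any comparison. The macrophage markers had a mean level between 5.79 and 5.87 on the chronic Th2 arrays, between 5.68 and 5.74 on the acute Th2 arrays and between 5.73 and 5.81 on the naive arrays, with Fabp4 at 4.42, 4.41 and 4.43 in the same order. Endothelium carries EPAS1, and 0 of 10 of its markers passed in any comparison, with Cdh5 at 6.07, 5.90 and 5.99. Pecam1, of the same list, lay above background with 7.67, 8.77 and 8.27. Its difference was -1.10 between chronic and acute Th2 cells, and its groups overlapped in every comparison. Of 8 stroma markers 0 passed. Of 12 lung epithelium markers, Sftpa1 alone passed and was 0.54 higher in chronic Th2 than in naive cells, with levels of 7.58, 7.12 and 7.04 in chronic Th2, acute Th2 and naive cells. That call was lost without naive array 2 or chronic Th2 array 1 or 2. Of 5 measured eosinophil markers, Ccr3 alone passed and rose by 1.08 in chronic and 0.91 in acute Th2 cells, with levels of 6.74, 6.58 and 5.67. Of 7 measured B cell markers, Cd79a alone passed and was 0.61 lower in chronic Th2 than in naive cells, a call lost when any 1 array other than naive array 2 was left out. Of 10 mast cell and basophil markers, Hdc and Gata2 passed in at least 1 comparison, and both are described below. Group 2 innate lymphoid cells carry GATA3 and PPARG, and 3 of their 9 markers, Klrg1, Ptpn13 and Rora, rose in each Th2 group over naive cells. The other 6, Kit, Thy1, Arg1, Nmur1, Il2ra and Kcnk1, did not pass in any comparison. Kit had 6.38, 6.63 and 6.55 and Nmur1 6.80, 6.62 and 6.73 in chronic Th2, acute Th2 and naive cells. Il2ra, with 13.22, 13.17 and 11.29, Thy1, with 10.43, 10.30 and 9.35, and Arg1, with 6.67, 7.30 and 5.94, were higher in Th2 cells without passing. Both Th2 groups lay above all naive arrays for Il2ra and Arg1. Kcnk1 had 6.54, 6.29 and 6.27, and its chronic Th2 arrays lay above all naive arrays. Of all genes, 15.6% did so in chronic and 8.8% in acute Th2 cells. The mean level of that list was 8.40 to 8.55 on chronic Th2 arrays, 8.57 to 8.63 on acute Th2 arrays and 7.06 to 7.40 on naive arrays, and its part in the levels of the members was not tested. In sorted bulk cells, fewer cells of a type and less RNA per cell cannot be told apart.

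**Figure D1:**
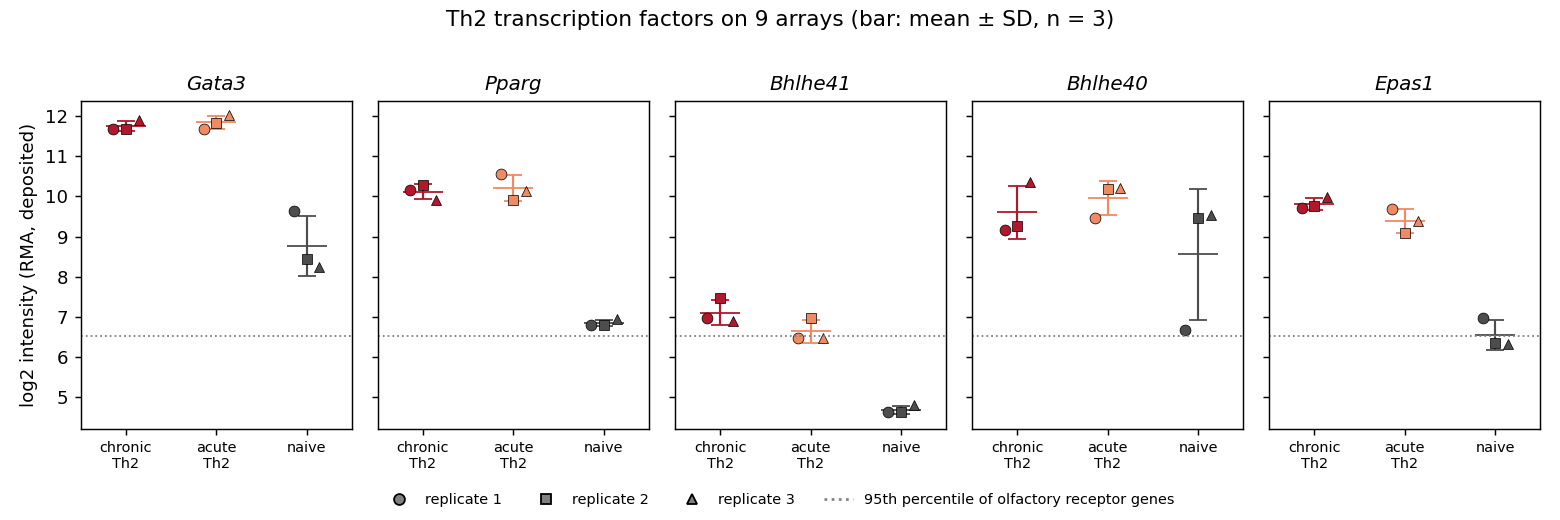
Level of the 5 transcription factor genes on each array (vertical axis, deposited log2 intensity) in chronic Th2, acute Th2 and naive cells. Points are arrays by replicate number, bars are the mean ± SD of 3 arrays, and the dotted line at 6.53 is the 95th percentile of olfactory receptor genes. All 6 Th2 arrays lie above all 3 naive arrays for Gata3, Pparg, Bhlhe41 and Epas1, and Bhlhe40 overlaps.

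Chronic Th2 cells were compared with naive cells, and 4 of the 5 genes rose, namely Pparg, Epas1, Gata3 and Bhlhe41. The same 4 rose in acute Th2 cells over naive cells. Over all 19937 genes, limma called 7.88% at an adjusted p under 0.05 between chronic Th2 and naive cells, 3.68% higher and 4.2% lower, and it called 5.87% between acute Th2 and naive cells, 3.67% higher and 2.2% lower. The arrays of these 4 genes did not overlap between Th2 and naive cells in either comparison, which held for 15.6% of all genes in the direction of higher in chronic Th2 cells and for 8.8% in acute Th2 cells. The called shares of all genes also stand beside the counts of every gene list given here. Both comparisons share the naive arrays, so that one does not bear independently on the other. Between chronic and acute Th2 cells 0 of the 5 genes passed the limma test, as 0.0301% of all genes did, and 1 of the 5, Bhlhe41, had an unadjusted p under 0.05, as 2962 of the 19937 genes did.

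Gata3 had a level of 11.68, 11.68 and 11.90 on chronic Th2 arrays 1, 2 and 3, of 11.69, 11.83 and 12.02 on acute Th2 arrays, and of 9.63, 8.44 and 8.25 on naive arrays. Both Th2 groups were high and close together, and the naive arrays were all lower, naive array 1 least so, though still far above background. The naive level is above that of 99.8% or more of olfactory receptor genes on each array, so that Gata3 was measured in naive cells too. Gata3 was 2.98 higher on the log2 scale in chronic Th2 than in naive cells (SE 0.31, 95% interval 2.27 to 3.70, adjusted p = 0.00068), a fold of 7.91. It was 3.07 higher in acute Th2 than in naive cells (SE 0.31, 95% interval 2.36 to 3.79, adjusted p = 0.000567), a fold of 8.42. Without naive array 1 the differences were 3.41 and 3.50. Chronic minus acute Th2 was -0.09 (95% interval -0.80 to 0.62), so that the order of those 2 groups was not settled. Among all genes, the rise of Gata3 ranked 61 in chronic and 60 in acute Th2 cells.

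The promoter of Gata3 is shown because GATA3 is known to act on its own gene and because it rose in both Th2 groups. The window runs from 250 bases before to 50 bases after the RefSeq start (GRCm38.p6, chr2:9878551-9878850, minus strand), and capitals mark the GATA word TGATAG at position 37 of the transcript.
Gata3 promoter: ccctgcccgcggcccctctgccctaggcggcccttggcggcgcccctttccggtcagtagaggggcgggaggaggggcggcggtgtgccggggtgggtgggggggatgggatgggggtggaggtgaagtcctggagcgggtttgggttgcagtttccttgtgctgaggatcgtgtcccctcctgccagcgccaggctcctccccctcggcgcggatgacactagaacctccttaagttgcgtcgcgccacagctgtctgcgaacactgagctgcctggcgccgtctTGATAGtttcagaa
The words searched on both strands were, for GATA factors, the word AGATAA, the word AGATAG, the word TGATAA and the word TGATAG, the E-box CACGTG, and the hypoxia core ACGTG, which the E-box contains. Of all 32851 windows of this length, 29.8% held a GATA word, 7.15% the E-box and 19.6% the hypoxia core. The Gata3 window has a GC content of 67.3%, against a median of 52.7% over all windows. A match describes these letters and no more.

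Genes that act upstream of GATA3 or bind with it changed in part. Of 25 measured genes in this list, 6 rose in chronic Th2 cells over naive cells and 0 fell, with a median difference of 0.13 against 0.04 over all genes. The same 6 genes rose in acute Th2 cells, with a median of 0.22 against -0.03. Maf, a bZIP factor that drives Il4 and Il10, had the largest rise of the list, by 4.81 in chronic and 4.21 in acute Th2 cells. Zbtb32, a repressor that binds GATA3, rose by 2.74 in chronic and 3.11 in acute Th2 cells. Batf, an AP-1 partner of IRF4, rose by 2.30 and 2.54. Rbpj, the DNA-binding partner of Notch receptors, was 2.00 and 2.02 higher, a call that was lost in both comparisons when any 1 of the 6 Th2 arrays was left out and with the 2 groups alone. Stat6, which carries the IL-4 signal to Gata3, had levels of 9.22, 9.38 and 9.80 in chronic Th2, acute Th2 and naive cells and did not pass. Without naive array 1, 12 genes of the list were higher and 4 lower in chronic Th2 cells, and 13 were higher and 3 lower in acute Th2 cells. That setting also called more of all 19937 genes. It called 3438 in chronic Th2 cells, 2274 of them lower, and 2424 in acute Th2 cells, 1218 of them lower.

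Most genes of a list that GATA3 is known to control in Th2 cells rose. Of its 14 measured genes, 10 rose and 1 fell in chronic Th2 over naive cells, with a median difference of 3.73, and 10 rose and 1 fell in acute Th2 cells, with a median of 3.84. Il5, the growth factor of eosinophils, had 12.43, 12.31 and 12.54 on chronic Th2 arrays, 12.72, 12.59 and 12.64 on acute Th2 arrays and 5.01, 5.15 and 5.31 on naive arrays, a difference of 7.27 and 7.50. Il10, a cytokine that restrains inflammation, rose by 7.52 in chronic and 7.03 in acute Th2 cells. Il13, which acts on airway epithelium, rose by 6.50 and 6.73, and Il9, a mast cell growth factor, by 6.42 and 6.35. The mean naive levels of Il5, Il9, Il10 and Il13 lie below the background mark of 6.53, so that these folds are folds of intensity. Ecm1, a secreted protein that Th2 cells use to leave lymph nodes, fell by 1.72 in chronic and by 1.09 in acute Th2 cells. Between chronic and acute Th2 cells 0 of the 14 passed the test, with differences from -0.72 to 0.60.

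The other GATA factors stayed near background. Of Gata1, Gata2, Gata4, Gata5 and Gata6, 1 passed in chronic Th2 over naive cells and 0 in acute Th2 over naive cells. Gata2, a factor of mast cells and progenitors, had a level of 6.97 ± 0.07 in chronic Th2 cells, 6.79 ± 0.08 in acute Th2 cells and 6.60 ± 0.02 in naive cells (SD, n = 3 each), a difference of 0.37 in chronic Th2 cells. That call was lost without naive array 2 or 3 or chronic Th2 array 1 or 2, and with the 2 groups alone. The olfactory receptor median given above is also highest on chronic Th2 arrays 1 and 2, and with that excess over the lowest array subtracted on the linear scale the difference of Gata2 was 0.24 and did not pass (adjusted p = 0.123).

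**Figure D2:**
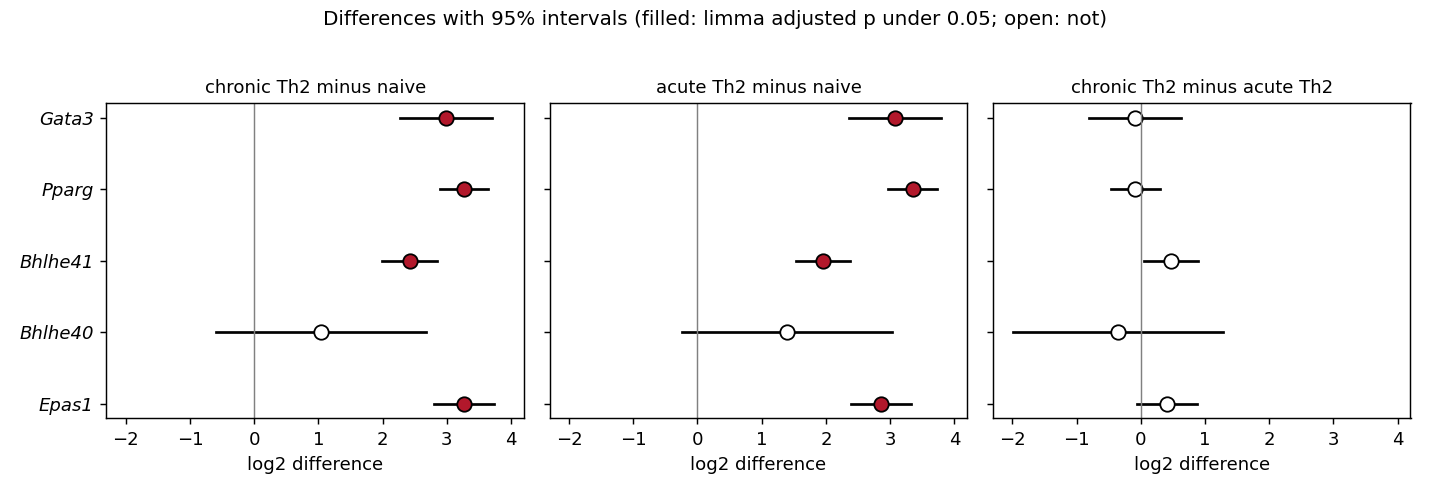
Log2 differences (horizontal axis) of the 5 genes in the 3 comparisons with their 95% intervals. Filled points passed limma's adjusted p under 0.05, which 4 of 5 genes did against naive cells and 0 of 5 did between chronic and acute Th2 cells.

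Pparg had a level of 10.15, 10.29 and 9.91 on chronic Th2 arrays, of 10.55, 9.91 and 10.14 on acute Th2 arrays and of 6.80, 6.80 and 6.95 on naive arrays. The Th2 arrays of both stages covered the same range, and the naive arrays lay close together just above the background mark. On the naive arrays Pparg was above 97.8% to 97.9% of olfactory receptor genes, so that its fold is a fold of intensity and may understate the difference in RNA. Pparg was 3.27 higher in chronic Th2 than in naive cells (SE 0.17, 95% interval 2.89 to 3.65, adjusted p = 7.73e-06), a fold of 9.64 and rank 50 of all rises. It was 3.35 higher in acute Th2 than in naive cells (SE 0.17, 95% interval 2.97 to 3.73, adjusted p = 6.58e-06), a fold of 10.2 and rank 46. Chronic minus acute Th2 was -0.08 (95% interval -0.46 to 0.29), and this sign turned under quantile normalization, where the value was 0.02.

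RefSeq holds 3 start windows of Pparg (GRCm38.p6, plus strand), and the outer ones are shown because its alternative starts differ in composition while the array gives 1 level for the gene. The start at chr6:115360894-115361193 has a GC content of 80.3% and the start at chr6:115421816-115422115 has 40.3%, with 62.7% at the start between them (chr6:115362099-115362398). None of the searched words was found in the 3 windows, so no letter is capitalised.
Pparg start 1: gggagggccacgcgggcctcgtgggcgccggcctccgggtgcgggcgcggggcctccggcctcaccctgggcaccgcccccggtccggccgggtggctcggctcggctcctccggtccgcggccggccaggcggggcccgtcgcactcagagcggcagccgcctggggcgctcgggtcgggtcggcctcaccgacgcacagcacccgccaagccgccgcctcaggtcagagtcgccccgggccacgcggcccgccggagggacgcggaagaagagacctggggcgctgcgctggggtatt
Pparg start 3: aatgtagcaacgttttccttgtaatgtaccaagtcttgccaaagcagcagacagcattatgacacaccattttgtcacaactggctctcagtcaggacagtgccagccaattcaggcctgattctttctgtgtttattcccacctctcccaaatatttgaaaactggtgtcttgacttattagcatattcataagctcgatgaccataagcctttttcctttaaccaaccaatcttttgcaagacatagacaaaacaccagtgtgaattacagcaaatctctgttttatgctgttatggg
Which start the T cells used was not measured.

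Some partners of PPARG passed the test. Limma called 7.88% of all genes in chronic and 5.87% in acute Th2 over naive cells, either direction. Of 17 measured receptors and cofactors, 1 rose and 2 fell in chronic Th2 over naive cells, with a median difference of -0.18, and 1 rose and 0 fell in acute Th2 cells, with a median of -0.08. Rxra, the receptor that pairs with PPARG, had a level of 7.57 ± 0.14 in chronic Th2 cells, 7.74 ± 0.19 in acute Th2 cells and 7.01 ± 0.15 in naive cells (SD, n = 3 each). Rxrb, another such receptor, was 0.57 lower in chronic Th2 than in naive cells, and Med1, a Mediator subunit that binds nuclear receptors, was 0.47 lower. All 3 calls in chronic Th2 cells were lost when single arrays were left out, among them each of naive arrays 2 and 3 and of chronic Th2 arrays 1 and 2, and the call of Rxra in acute Th2 cells was lost without acute Th2 array 2 or 3. The call of Rxra in chronic Th2 cells was also lost with median centring, with the 2 groups alone and with the excess background subtracted, and those of Rxrb and Med1 with quantile normalization, every probe set, the 2 groups alone, and trend and robust eBayes. Ppara and Ppard, the other receptors of the family, did not pass, with Ppard at 8.12, 8.21 and 8.48 in chronic Th2, acute Th2 and naive cells.

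Of 20 measured lipid genes that PPARG is known to control in other tissues, 1 rose and 0 fell in each Th2 group over naive cells, and the median difference was -0.004 in chronic and -0.006 in acute Th2 cells. For all genes, the share called higher was 3.68% in chronic and 3.67% in acute Th2 cells. The gene of the lipid list that rose was Plin2, which coats lipid droplets. Plin2 had 8.61, 8.82 and 8.76 on chronic Th2 arrays, 9.75, 9.38 and 9.86 on acute Th2 arrays and 6.56, 6.47 and 6.53 on naive arrays. The 3 groups did not overlap, with acute Th2 cells highest. Plin2 rose by 2.21 in chronic Th2 cells (adjusted p = 1.74e-05) and by 3.14 in acute Th2 cells (adjusted p = 1.84e-06), and chronic minus acute Th2 was -0.93, which did not pass (adjusted p = 0.124). Cd36, a fatty acid transporter that PPARG drives in macrophages, had levels of 3.97, 3.82 and 3.77 in chronic Th2, acute Th2 and naive cells, below the background mark, as Fabp4 did. Without naive array 1, 3 genes of the list were higher and 3 lower in chronic Th2 cells, and 4 were higher and 2 lower in acute Th2 cells. Of all 19937 genes, that setting called 3438 in chronic Th2 cells, 2274 of them lower. In acute Th2 cells it called 2424, 1218 of them lower.

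Bhlhe41 had a level of 6.96, 7.48 and 6.89 on chronic Th2 arrays, of 6.48, 6.97 and 6.48 on acute Th2 arrays and of 4.63, 4.63 and 4.80 on naive arrays. The naive arrays were all low and the Th2 arrays all higher, and the ranges of chronic and acute Th2 cells met at acute Th2 array 2. On the naive arrays Bhlhe41 was above only 32.8% to 37.8% of olfactory receptor genes, and on the Th2 arrays above 92.2% to 98.8%. It thus lay at the upper edge of the background in Th2 cells and inside it in naive cells. Bhlhe41 was 2.42 higher in chronic Th2 than in naive cells (SE 0.19, 95% interval 2.00 to 2.84, adjusted p = 0.000112), a fold of intensity of 5.35. It was 1.95 higher in acute Th2 than in naive cells (SE 0.19, 95% interval 1.53 to 2.38, adjusted p = 0.000373), a fold of intensity of 3.87.

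Chronic minus acute Th2 was 0.47 for Bhlhe41 (95% interval 0.04 to 0.89, adjusted p = 0.325), which did not pass. With array weights, which gave 8.23 to acute Th2 array 3 and 0.165 to naive array 1 and called 6721 genes, the difference was 0.74 and passed (adjusted p = 0.009). The olfactory receptor median was also higher on chronic Th2 arrays 1 and 2 than on the acute Th2 arrays. With the excess of that background subtracted from each array, the difference was 0.37 and did not pass (adjusted p = 0.313). On chronic Th2 array 3, where that median was 5.15, Bhlhe41 had 6.89, above acute Th2 arrays 1 and 3 and below acute Th2 array 2.

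The promoter of Bhlhe41 is shown because BHLHE factors are known to bind E-boxes in promoters of this family, and it holds such a box (RefSeq, GRCm38.p6, chr6:145865371-145865670, minus strand). Capitals mark CACGTG, which begins at position -153 from the start of transcription and contains the hypoxia core ACGTG on both strands.
Bhlhe41 promoter: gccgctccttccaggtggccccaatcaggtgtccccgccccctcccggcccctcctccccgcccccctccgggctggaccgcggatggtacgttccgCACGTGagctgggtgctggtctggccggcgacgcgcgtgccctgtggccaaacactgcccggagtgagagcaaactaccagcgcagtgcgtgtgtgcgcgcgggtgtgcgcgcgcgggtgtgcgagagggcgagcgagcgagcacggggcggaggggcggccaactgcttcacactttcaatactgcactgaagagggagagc
The window has a GC content of 70.7%, and 7.15% of all windows hold this E-box. No promoter of Bhlhe40 or Epas1 is shown.

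Bhlhe40 was the exception among the 5 genes. It had a level of 9.17, 9.26 and 10.37 on chronic Th2 arrays, of 9.46, 10.19 and 10.21 on acute Th2 arrays and of 6.68, 9.46 and 9.54 on naive arrays. Naive arrays 2 and 3 lay inside the range of the Th2 arrays, and naive array 1 lay far below them all, near the background mark. Bhlhe40 was 1.04 higher in chronic Th2 than in naive cells (SE 0.72, 95% interval -0.59 to 2.67, adjusted p = 0.374) and 1.39 higher in acute Th2 than in naive cells (SE 0.72, 95% interval -0.24 to 3.02, adjusted p = 0.411), and neither passed. Without naive array 1 the differences were 0.10 (adjusted p = 0.879) and 0.45 (adjusted p = 0.582). Chronic minus acute Th2 was -0.35 (95% interval -1.99 to 1.28, adjusted p = 0.804), an interval that holds a fold of up to 2.42 in favour of chronic Th2 cells. Within chronic Th2 cells the levels spanned 1.19, with array 3 above both others.

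Bhlhe40 is known to be induced by T cell stimulation, and its levels are given beside other such genes. Irf4, a factor that rises with the strength of T cell receptor signals, had 11.70, 11.80 and 11.87 on chronic Th2 arrays, 11.58, 11.89 and 11.81 on acute Th2 arrays and 6.87, 11.73 and 11.71 on naive arrays. Il2ra, the high-affinity subunit of the IL-2 receptor, had 9.39 on naive array 1, against 12.03 and 12.44 on naive arrays 2 and 3. Myc, a transcription factor gene of early activation, had 10.19 there, against 12.15 and 12.19, and Cd69, an early activation marker, had 10.59, against 12.08 and 12.20. Bhlhe40 was lowest on the naive array on which all 4 of these genes were lowest of the naive arrays. Irf4, Il2ra and Myc were picked after their values were seen, so this is a description and no test. Naive array 1 correlated with naive arrays 2 and 3 at 0.94 each over all genes, against 0.99 between those 2. The share of all genes lowest on naive array 1 was not counted. Junb, of the list around GATA3, went the other way, with 10.74 on naive array 1, against 8.67 and 8.97. The cause of that difference between naive arrays was not tested.

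**Figure D3:**
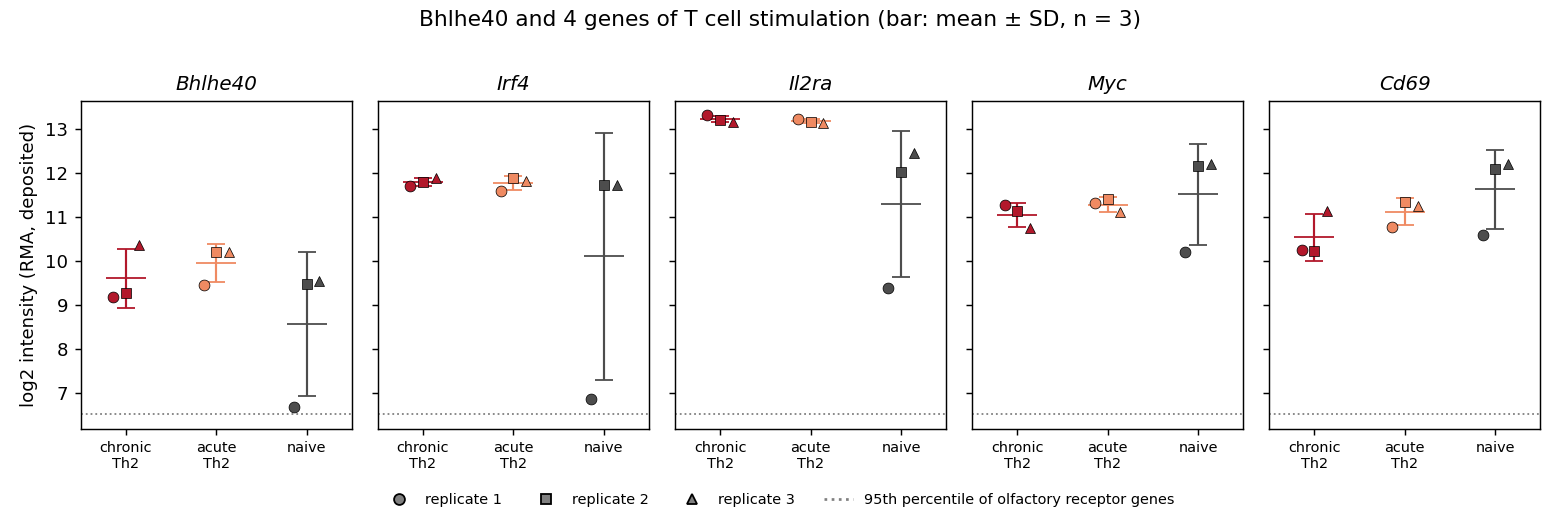
Level of Bhlhe40 and of 4 genes of T cell stimulation on each array (vertical axis, deposited log2 intensity), with the mean ± SD of 3 arrays and the background mark of 6.53 as a dotted line. Naive array 1 (circle) is the lowest of the naive arrays for all 5 genes, with Bhlhe40 at 6.68 and Irf4 at 6.87. Irf4, Il2ra and Myc were picked after their values were seen.

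Clock genes and helix-loop-helix partners of BHLHE40 and BHLHE41 changed in both directions. For all genes, 3.68% were called higher and 4.2% lower in chronic Th2 cells, and 3.67% and 2.2% in acute Th2 cells. Of 27 measured genes, 4 rose and 5 fell in each Th2 group over naive cells, with a median difference of -0.19 in chronic and -0.09 in acute Th2 cells. Nfil3, a bZIP repressor with roles in type 2 immunity, rose by 3.16 in chronic and 2.88 in acute Th2 cells. Hlf, a PAR bZIP factor whose family is under clock control, rose by 2.46 and 2.01, Id2, an inhibitor of E proteins, by 2.28 and 1.96, and Rora, the nuclear receptor that activates Arntl, by 1.83 and 2.26, of which the call in chronic Th2 cells was lost with the 2 groups alone. The 5 that fell were Per1, Cry2, Tef, Id3 and Tcf12. In chronic Th2 cells the call of Tef was lost without naive array 2 or chronic Th2 array 2, and that of Id3 without chronic Th2 array 1. Per1, a clock repressor that BHLHE40 and BHLHE41 are known to repress, had 7.98, 8.04 and 8.47 on chronic Th2 arrays, 8.14, 8.27 and 8.42 on acute Th2 arrays and 10.43, 9.30 and 9.96 on naive arrays, and fell by 1.73 and by 1.62. Cry2, its partner, fell by 1.08 and by 0.82, and its call in acute Th2 cells was lost when any 1 of the acute Th2 arrays or naive array 2 or 3 was left out, with the 2 groups alone and with the excess background subtracted. Clock and Arntl, the activators that BHLHE proteins oppose, did not pass, with Arntl at 7.52, 7.74 and 7.44 in chronic Th2, acute Th2 and naive cells. Without naive array 1, 10 genes of the list were lower in chronic and 8 in acute Th2 cells, with 4 higher in each. That setting also called more of all 19937 genes, with 2274 lower in chronic and 1218 lower in acute Th2 cells.

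Epas1 had a level of 9.70, 9.77 and 9.98 on chronic Th2 arrays, of 9.70, 9.10 and 9.40 on acute Th2 arrays and of 6.97, 6.35 and 6.33 on naive arrays. The naive arrays lay around the background mark, above 91.7% to 98.6% of olfactory receptor genes, and the Th2 arrays far above it. Epas1 was 3.27 higher in chronic Th2 than in naive cells (SE 0.21, 95% interval 2.80 to 3.73, adjusted p = 3.02e-05), a fold of intensity of 9.61 and rank 51 of all rises. It was 2.85 higher in acute Th2 than in naive cells (SE 0.21, 95% interval 2.38 to 3.32, adjusted p = 7.04e-05), a fold of intensity of 7.21 and rank 74. Chronic minus acute Th2 was 0.41 (95% interval -0.05 to 0.88, adjusted p = 0.361), which did not pass. The chronic and acute Th2 arrays of Epas1 did not overlap, but chronic Th2 array 1 and acute Th2 array 1 were equal to 2 decimals, and 11.8% of all genes had every chronic Th2 array above every acute Th2 array. With array weights the difference was again 0.41 and passed (adjusted p = 0.0201). That setting called far more of all genes between chronic and acute Th2 cells than the main fit, as given beside Bhlhe41.

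The genes around EPAS1 did not move as a block. For all genes, 3.68% were called higher and 4.2% lower in chronic Th2 cells, and 3.67% and 2.2% in acute Th2 cells. Of 29 measured genes of the hypoxia pathway, 3 rose and 1 fell in chronic Th2 over naive cells, with a median difference of 0.03, and 5 rose and 1 fell in acute Th2 cells, with a median of 0.13. Egln3, a prolyl hydroxylase that marks HIF proteins for breakdown and is itself induced by them, had 8.83, 9.07 and 8.96 on chronic Th2 arrays, 9.22, 9.37 and 9.50 on acute Th2 arrays and 6.43, 6.06 and 6.25 on naive arrays. It rose by 2.71 in chronic and 3.12 in acute Th2 cells. Hif1a, the other main oxygen-regulated subunit, rose by 1.39 and 1.38 over a naive level of 10.72, and its call was lost in both comparisons when acute Th2 array 2 or 3 or chronic Th2 array 1 or 2 was left out, and in the acute comparison also without acute Th2 array 1. With the 2 groups alone it was lost in both. Bnip3, a mitochondrial protein induced in low oxygen, was 1.39 higher in acute Th2 than in naive cells, and Aldoa, a glycolytic enzyme, 0.80 higher, while in chronic Th2 cells neither passed. Slc2a3, a glucose transporter, fell by 0.82 in chronic and by 0.74 in acute Th2 cells. Arnt, the usual partner of EPAS1, did not pass and had 9.01, 9.12 and 8.91 in chronic Th2, acute Th2 and naive cells. Without naive array 1, 5 genes of the list were higher and 3 lower in chronic Th2 cells, and 9 were higher and 1 lower in acute Th2 cells. Of all 19937 genes, that setting called 3438 in chronic Th2 cells, 2274 of them lower. In acute Th2 cells it called 2424, 1206 of them higher.

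Arnt2, a relative of Arnt that can pair with HIF subunits, was the only gene of the pathway lists that passed between chronic and acute Th2 cells. It had 9.06, 9.30 and 9.14 on chronic Th2 arrays, 8.09, 8.08 and 8.12 on acute Th2 arrays and 6.68, 6.33 and 6.39 on naive arrays. The 3 groups did not overlap. Arnt2 was 2.70 higher in chronic Th2 than in naive cells (adjusted p = 2.01e-06), 1.63 higher in acute Th2 than in naive cells (adjusted p = 4.61e-05) and 1.07 higher in chronic than in acute Th2 cells (SE 0.11, adjusted p = 0.0235). With 1 array left out, the difference between the Th2 groups stayed between 1.01 and 1.12, but the call was lost without any 1 of the acute or chronic Th2 arrays and without naive array 3. It was also lost with median centring (0.99, adjusted p = 0.0529), with every probe set as a feature (adjusted p = 0.0627), with trend and robust eBayes (adjusted p = 0.079) and with the excess background subtracted (1.05, adjusted p = 0.0685).

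**Figure D4:**
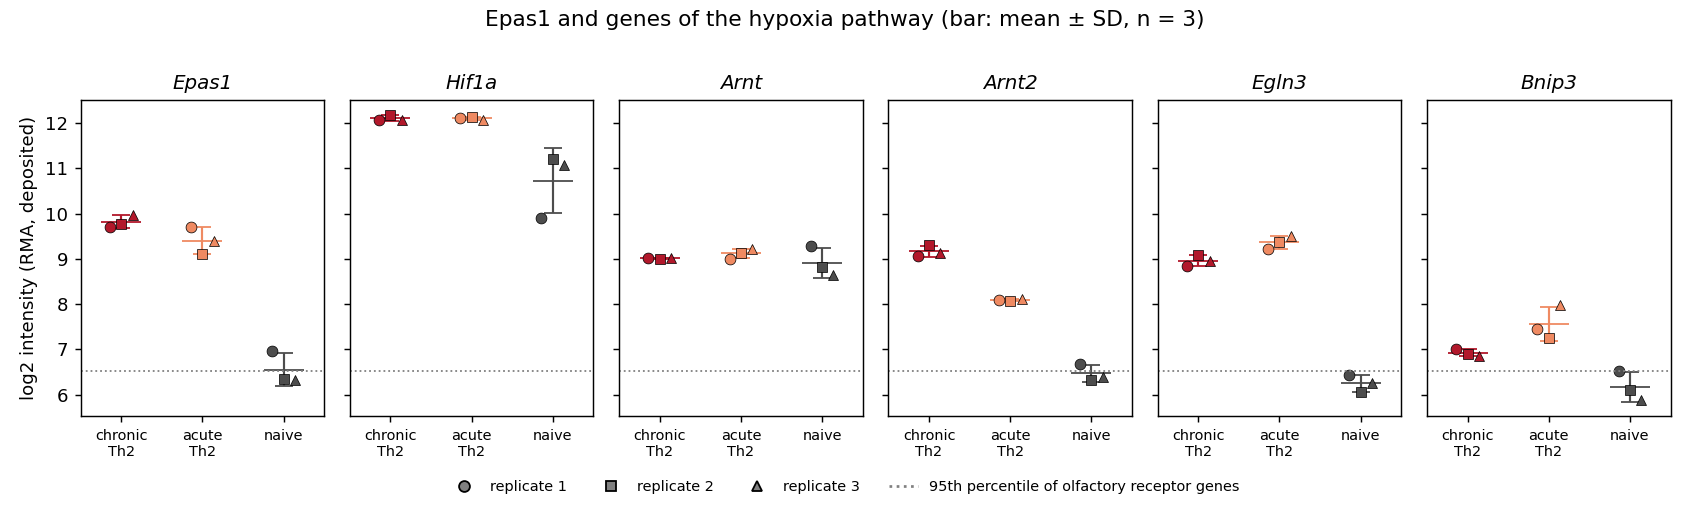
Level of Epas1 and 5 genes of the hypoxia pathway on each array (vertical axis, deposited log2 intensity), with the mean ± SD of 3 arrays and the background mark of 6.53 as a dotted line. Egln3, Arnt2 and Epas1 are near the mark in naive cells and above it in both Th2 groups, and Arnt shows no such step.

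The profiles of the 5 genes over the 9 arrays were compared after each was centred on its own mean. Gata3 and Epas1 were closest, with a root mean square difference of 0.33 on the log2 scale, followed by Pparg and Epas1 with 0.34 and Gata3 and Pparg with 0.48. Bhlhe41 differed from those 3 genes by 0.56 to 0.65, with a smaller step over naive cells. Bhlhe40 stood apart from all others, by 1.04 from Bhlhe41 and by 1.44 from Gata3, the farthest pair. Naive array 1 had the highest naive level of Gata3 and the lowest of Bhlhe40.

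Among all genes but those with predicted Gm or Rik symbols, the profiles nearest to each member over the 9 arrays were found by the same measure. For Gata3 they were Tnfsf10, a death ligand, at 0.20, Entpd1, an enzyme that degrades extracellular ATP, at 0.21, Etv6, an ETS family repressor, at 0.22, and Cd200r1, an inhibitory receptor, at 0.26. Tnfsf10 had mean levels of 8.46, 8.60 and 5.72 in chronic Th2, acute Th2 and naive cells, and like Gata3 its highest naive level was on array 1. For Pparg they were Cysltr1, a receptor of cysteinyl leukotrienes, at 0.16, Nek6, a kinase of cell division, at 0.22, Il21, a cytokine, at 0.23, and Igfbp7, a secreted binding protein, at 0.23. Cysltr1 had mean levels of 9.18, 9.28 and 5.78 in the same order. For Bhlhe41 they were Galc, a lysosomal enzyme, at 0.23, Gpm6b, a membrane glycoprotein, at 0.25, Tmbim1 at 0.26 and Hlf at 0.26. For Epas1 they were Rgs1, a regulator of G protein signals, at 0.23, Nfil3 at 0.25, Bmpr2, a receptor of bone morphogenetic proteins, at 0.25, and Etv6 at 0.26. For Bhlhe40, which was called in no comparison and was added after seeing the data, they were Chac1, a stress-induced enzyme that degrades glutathione, at 0.24, Gadd45b, a stress response gene, at 0.25, Bcl2a1c, of a family that blocks cell death, at 0.27, and Acot7, a thioesterase, at 0.31. Chac1 had 6.39 on naive array 1, against 9.60 and 9.53 on naive arrays 2 and 3.

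**Figure D5:**
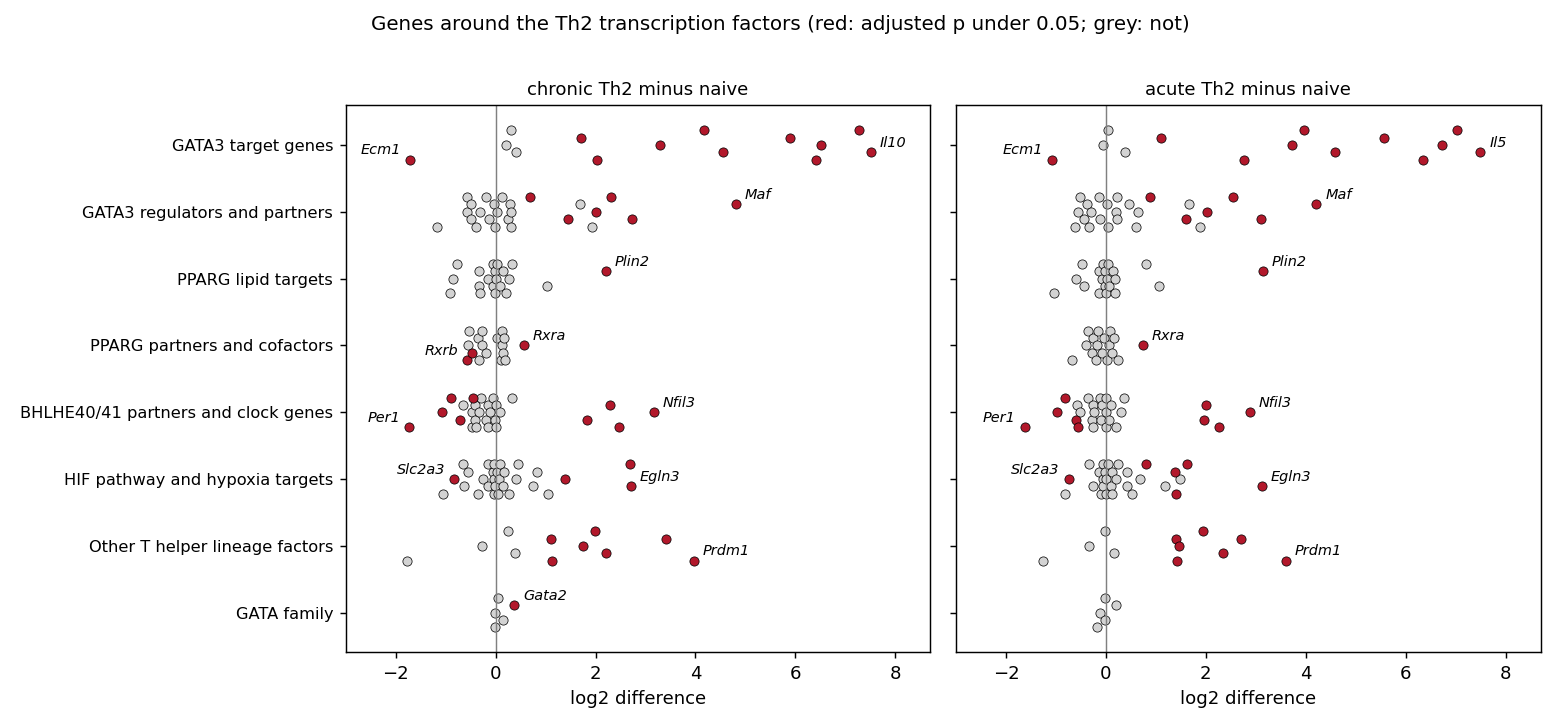
Log2 difference (horizontal axis) of each measured gene of 8 lists in chronic Th2 minus naive and acute Th2 minus naive, with genes past limma's adjusted p under 0.05 in red. The GATA3 target genes reach 7.52 in chronic and 7.50 in acute Th2 cells, and the lists around PPARG, the BHLHE factors and HIF lie mostly around 0.

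Factors of other T helper lineages were measured for comparison with Gata3. Of 11 measured genes, 7 rose and 0 fell in each Th2 group over naive cells, with a median difference of 1.13 in chronic and 1.42 in acute Th2 cells. Prdm1, a transcriptional repressor that drives effector and plasma cell fate, rose by 3.97 in chronic and 3.60 in acute Th2 cells. Ahr, a ligand-activated factor of barrier lymphocytes, rose by 3.41 and 2.70, and Tox2, an HMG box factor, by 2.21 and 2.34. Zeb2, a zinc finger repressor, was 1.99 and 1.94 higher, a call that was lost without any 1 of the chronic Th2 arrays or acute Th2 array 2 or 3, and in the acute comparison also without acute Th2 array 1 or naive array 3. With the 2 groups alone it was lost in both. Foxp3, the factor of regulatory T cells, had levels of 10.21, 10.49 and 9.08 in chronic Th2, acute Th2 and naive cells. Between chronic and acute Th2 cells 0 of the 11 passed.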

How the data were processed

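Biotin-labelled total RNA of 9 samples was hybridised to Affymetrix Mouse Gene 1.0 ST arrays. The authors deposited 1 log2 intensity per probe set and array, made with RMA per the submitters' processing notes, which also name limma. Versions, genome build and filters were not given in the sources used here. Of 34760 probe sets, 21640 are listed with 1 gene, and a gene was taken from the brightest of these, which gave 19937 genes. Of the probe sets, 35.4% hold the same value on at least 2 arrays, and 0 pairs of arrays are identical. Deposited values were used as they are. The gene of 1 sort marker is not reported here.

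The linear model of limma 3.58.1 (R 4.3.3) was fitted to all 9 arrays with the group as its term, followed by eBayes moderation and two-sided tests of the 3 differences. Benjamini-Hochberg adjustment ran over all 19937 genes, with calls at an adjusted p under 0.05. The fit was tested on simulated data. The smallest two-sided p of an exact permutation of 3 against 3 arrays is 0.1, and none is given. The number of arrays limits the precision. SE is that of limma, and intervals are 95%. No filter removed dim genes.

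Named were the 5 members, the sort markers, up to 4 called genes of each list with the largest difference per comparison, and for each called member the 4 genes with the nearest profile. Ecm1, Per1, Cry2, Tef, Id3, Tcf12, Aldoa, Stat6, Ppara, Ppard, Cd36, Fabp4, Cdh5, Clock, Arntl, Arnt, Foxp3, Irf4, Il2ra, Myc, Junb, Kit, Nmur1, Thy1, Kcnk1, Cpa3, Fcer1a, Ms4a2, Mcpt8, Tpsb2, Cma1, Mcpt4, Prss34 and the nearest profiles of Bhlhe40 were named after their values were seen. The members and lists were chosen with earlier results of these data known. Alternatives were a filter on dim genes, quantile normalization, median centring, every probe set as a feature, mean of probe sets, 2 groups alone, array weights, eBayes with trend and robust, a replicate block and leaving out each array. Leaving out naive array 1 with chronic Th2 array 3, and subtracting the excess olfactory receptor background, were chosen after seeing the data. Promoter sequences are from RefSeq (GRCm38.p6), with entries for 3 of the 5 genes, and were searched for the words given in the text.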

Additional observations from a re-analysis of the deposited data

Results flagged for a closer look

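Of the genes read beside the 5 transcription factors, 2 differed between chronic and acute Th2 cells, so that their changes over naive cells differ between the stages. Arnt2, a possible partner of EPAS1, was 1.07 higher in chronic than in acute Th2 cells (limma adjusted p = 0.0235), with all 3 chronic Th2 arrays above all 3 acute Th2 arrays, a call that was also lost with the replicate block (adjusted p = 0.176). Hdc, the enzyme that makes histamine, was lower in chronic than in acute Th2 cells, with a difference of -1.80 (limma adjusted p = 0.0235). Hdc had 7.46, 7.35 and 7.80 on chronic Th2 arrays, 9.66, 9.15 and 9.19 on acute Th2 arrays and 6.48, 6.54 and 6.73 on naive arrays. The mast cell and basophil markers Cpa3, Fcer1a and Ms4a2 had mean levels of 4.57, 4.38 and 4.43 in chronic Th2 cells and of 4.30, 4.03 and 4.33 in acute Th2 cells. Mcpt8, Tpsb2, Cma1 and Mcpt4 had 5.32, 6.14, 5.20 and 4.88 in chronic and 5.32, 6.09, 5.17 and 4.83 in acute Th2 cells. Prss34 was lower in chronic than in acute Th2 cells, as Hdc was, with 5.80 against 5.94. All of these lie below the background mark. Gata2, of the same list, lay above it with 6.97 and 6.79. Of the list, Hdc alone passed between chronic and acute Th2 cells. The call of Hdc was lost without any 1 of the acute Th2 arrays, chronic Th2 array 1 or 2, or naive array 3, and also with every probe set as a feature (adjusted p = 0.0602), with the 2 groups alone (adjusted p = 0.051) and with the replicate block (adjusted p = 0.142).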

How the results depend on the processing

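Of 165 values of the 5 genes under 11 other settings, 159 kept their direction and their side of the threshold, as did 133 of 135 values with 1 array left out. The rises of Gata3, Pparg, Bhlhe41 and Epas1 over naive cells passed under every setting run. Between chronic and acute Th2 cells, array weights moved Bhlhe41 to 0.74 and Epas1 to 0.41, both past the threshold. Pparg turned sign there, to 0.075 with array weights, 0.024 with quantile normalization and 0.021 without naive 1 and chronic Th2 3, and lay between -0.23 and 0.094 with 1 array left out. Bhlhe40 in chronic Th2 over naive cells was -0.28 without naive 1 and chronic Th2 3. The count of called genes in chronic Th2 minus naive, 1571 as reported, was 686 with the 2 groups alone, 4675 with array weights, 4665 without naive 1 and chronic Th2 3, and 734 to 3438 with 1 array left out. In acute Th2 minus naive, 1171 as reported, it was 762, 4019 and 2624 in the same order, and 653 to 2424. In chronic minus acute Th2, 6 as reported, it was 2, 6721 and 1087, and 0 to 12, with 3 under trend and robust, 1 with every probe set, 2 with excess background subtracted and 0 with the replicate block. The causes were not tested. Deviations of arrays of the same number correlated from -0.09 to 0.57, with 0.57 for number 1 and 0.40 for number 3 between chronic and acute Th2 cells. Those of arrays of different number correlated from -0.56 to 0.44. Whether arrays of the same number share a batch was not tested, and the block changed no other call of the 5 genes. Subtracting the background excess moved the median of all genes by -0.30 in chronic Th2 minus naive and by -0.26 in chronic minus acute Th2. With 3 arrays a group and naive levels of Pparg, Bhlhe41 and Epas1 within or near the background, folds of these 3 genes are limited by signal.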
